A study of Komagataella phaffii with 9 samples.

Results

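The comparison of the *CRA1* overexpression (OE) strain with the control strain of the yeast *Komagataella phaffii* rests on 6 of the 9 RNA-seq libraries of the study, chosen by their labels: OE_1, OE_2 and OE_3 against control_1, control_2 and control_3. All 5344 sequences of the count tables are considered, of which 1986 had enough counts to be tested. Both strains derive from CBS 7435 and carry the coding sequence of eGFP behind the promoter of the glyceraldehyde-3-phosphate dehydrogenase gene, and the OE strain in addition carries a cassette for *CRA1*, which the labels call Gal4-like. The promoter of that cassette is not given in the sources used here. Cells were grown in complex medium with 25 µg mL−1 zeocin for 24 to 26 h at 25 °C, washed, transferred to 20 mL of minimal medium with 5 g L−1 glucose and ammonium as the nitrogen source, and sampled in exponential growth. Each strain was 1 transformant grown in 3 cultures, so that p-values measure the spread between cultures of that transformant only.

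*CRA1* encodes a zinc cluster transcription factor related in sequence to Gal4, the activator of the galactose genes of *Saccharomyces cerevisiae*. *K. phaffii* respires glucose under aerobic conditions, whereas *S. cerevisiae* ferments it to ethanol when glucose is abundant, and the question behind the strain is how far *CRA1* changes this behaviour. Yeasts tune the transcription of glycolysis, ribosomes, amino acid synthesis and nitrogen uptake to the quality of their carbon and nitrogen source, often through separate regulators such as the Snf1 kinase for carbon and the GATA factors for nitrogen. Roles of genes given in the following are those known for the *S. cerevisiae* gene of the same name unless another species is named.

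The amount of *CRA1* transcript differed widely between the OE cultures. OE_1, OE_2 and OE_3 had 810, 95 and 316 estimated counts of *CRA1* (PP7435_Chr1-1522), against 11 in each control library. The groups did not overlap, with a log2 fold change of 4.75 and a standard error of 0.65 (adjusted p = 0.0031, quasi-likelihood test of edgeR, p-values adjusted by the Benjamini-Hochberg method over all genes tested). The 3 OE libraries thus order as OE_1, OE_3 and OE_2, and each function described in the following was set beside this order.

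The order of *CRA1* was, however, also the order of features of the whole library. Total counts were 213700, 114609 and 139065 in OE_1, OE_2 and OE_3, and 106343 to 108535 in the control libraries. The 3358 sequences left out as too low held 18.7%, 9.27% and 12.5% of the counts of OE_1, OE_2 and OE_3, against 7.92% to 8.57% in the control. For these sequences the median log2 difference from the control mean was 0.97 in OE_1, 0.08 in OE_2 and 0.41 in OE_3, while for the tested genes it lay between −0.04 and 0.04 in the same 3 libraries. The most abundant sequence in each of the 6 libraries was *RPS26B*. At 0 counts a gene's share could still reach 0.00140% in the largest of these libraries and 0.00282% in the smallest (3 counts of the total), and such limits cover counting error only. In RNA of whole cultures, less RNA per cell and fewer cells with the transcript cannot be told apart. With 3 OE cultures, a gene that follows *CRA1* and a gene that follows this shift of the library cannot be told apart by order alone. Of the OE libraries, OE_2 came closest to the control libraries in these features, so its values are given throughout.

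The counts have a limit that bears on every value given here. Neither whether the library kit marks strand nor the strand setting of the counting is given in the sources used here, and genes that are usually abundant in yeast were low. In the control libraries *CDC19*, for pyruvate kinase, had 41, 35 and 40 counts, whereas *REV1*, a repair polymerase gene with the next identifier, had 370, 390 and 396. The egfp reporter, behind a glycolytic promoter, had 39, 26 and 45 counts in the control libraries. Whether counts stem from reads of the opposite strand was not tested, so that a value is that of the deposited sequence name and may not be that of the gene's own transcript.

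**Figure D1:**
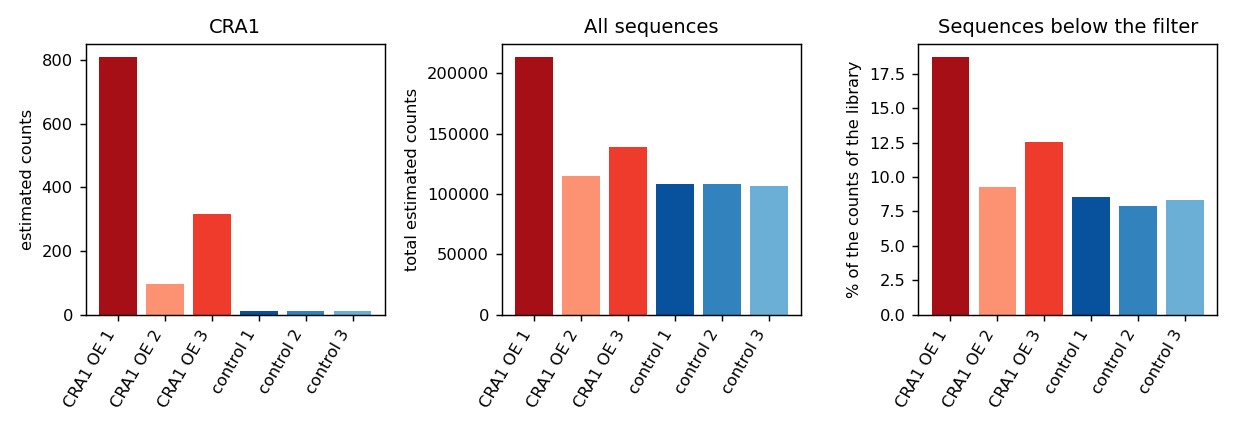
Estimated counts of *CRA1*, total estimated counts, and the share of counts on the 3358 sequences below the count filter, 1 bar for each of the 3 OE and 3 control libraries. All 3 measures are highest in OE_1 and lowest, among the OE libraries, in OE_2.

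Among the 1986 genes tested, 142 were called higher and 16 lower in the OE strain, at an adjusted p under 0.05 and a fold change of at least 2. These are 7.15% and 0.806% of the genes tested, or 7.96% together. Each of the 158 called genes had its 3 OE libraries on one side of the 3 control libraries, as did 34.9% of all genes tested. The median log2 fold change was 2.16 among the genes called higher, −1.35 among those called lower and 0.02 over all genes tested. Calls depended on single libraries, with 40 genes called higher and 4 lower without control_2 and 515 higher and 59 lower without OE_2. They also numbered 77 and 9 without OE_3, 58 and 4 without control_1, and 68 and 7 without control_3. Of the 158 calls, 41 were kept with every one of the 6 libraries left out in turn, 37 of them higher and 4 lower.

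The genes called higher were sorted into kinds by a cutoff of 1 log2 unit on their spread across the OE libraries. Of the 142, 90 were level, meaning that the 3 OE libraries lay within 1 log2 unit of each other, 46 followed *CRA1*, meaning that they ordered as OE_1, OE_3, OE_2 with at least 1 log2 unit between OE_1 and OE_2, and 6 did neither. Without regard to the cutoff, 67 of the 142 (47.2%) ordered as OE_1, OE_3, OE_2, against 28.3% of all genes tested. The level genes thus include some in the order of *CRA1*. Level genes had a median log2 difference from the control mean of 1.73 in OE_1, 1.77 in OE_2 and 1.98 in OE_3. In the genes that followed *CRA1*, the same medians were 2.98, 0.98 and 2.01. Every one of the 142 genes was above all control libraries also in OE_2, as were 29.3% of all genes tested. Leaving out each library in turn kept 34 of the 90 level calls and 2 of the 46 calls that followed *CRA1*, namely *CRA1* itself and *TPI1*. DESeq2 on the 6 libraries went the other way, calling 63 of the 90 and 45 of the 46. The kinds are defined by the spread between OE libraries, which also enters the edgeR test. These shares therefore do not show which kind is the more reliable. Since a wide spread between OE libraries makes a call harder to reach, the numbers called do not measure how frequent each kind is. Over all genes tested 336 followed *CRA1*, and the log2 difference of control_1 minus control_2 had a median of 0.35 in these 336 genes and 0.02 in the 1507 level ones. *CRA1* was at 11 counts in both control libraries. Median control counts were 13.3 in the 336 genes and 34.7 in the level ones, and the source of the difference was not tested.

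**Figure D2:**
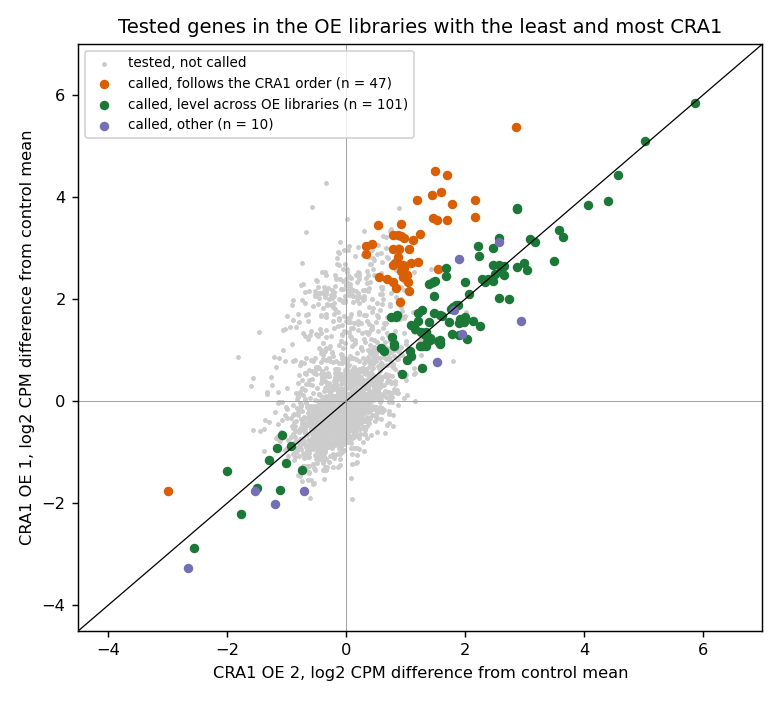
Each of the 1986 tested genes, with its log2 difference from the control mean in OE_2 on the horizontal axis and in OE_1 on the vertical axis. Level genes lie along the diagonal line of equal values, whereas the called genes that follow *CRA1* lie above it, next to a cloud of uncalled genes that are high in OE_1 and near 0 in OE_2.

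To name functions, 373 genes were placed in 27 lists. All of their members come from an annotation table that holds only genes past the study's cutoffs in at least 1 comparison of strains, so that the lists are selected for change and are not independent evidence of their direction. Of the 527 genes of that table that were tested, 24.5% were called higher, which is the better background for a list than the 7.15% of all genes.

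Genes of nitrogen uptake and its regulation rose, and most of those called were level across the OE libraries. Of 16 list members 14 were tested, and 8 were called higher and none lower. The median log2 fold change was 2.46, against 0.41 over the tested genes of the annotation table and 0.02 over all genes tested. Of the 8, 7 were level, while the median log2 difference over all 14 tested was 2.78 in OE_1, 1.39 in OE_2 and 2.23 in OE_3. *GAT1* (PP7435_Chr4-0343), a GATA activator of genes that are shut off on good nitrogen sources, had 232, 185 and 236 counts in OE_1, OE_2 and OE_3, and 11, 7 and 9 in the control libraries. All OE libraries were thus high to a like degree, and the log2 fold change was 4.28 (standard error 0.22, edgeR adjusted p = 2.0e-05). *MDS3* (PP7435_Chr4-1642), a putative part of the TOR pathway, which couples growth to nutrients, had 209, 136 and 217 counts in the OE libraries, and 3, 6 and 0 in the control libraries, a log2 fold change of 5.61 (standard error 0.49, edgeR adjusted p = 0.00031). *NNK1* (PP7435_Chr1-1098), a kinase that interacts with the TOR complex and the nitrogen regulator Ure2, had 40, 14 and 25 counts in the OE libraries, and 0, 0 and 1 in the control libraries. With 1 control count in all, its ratio of 63.5 has a counting interval of 11.1 to 2538 (95%, exact). *NNK1* counts as level but ordered as *CRA1*, with 0.88 log2 units between OE_1 and OE_2.

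The rise extended to transporters of several nitrogen compounds. The ammonium permease gene *MEP2* (PP7435_Chr1-1182) had 41, 14 and 20 counts in the OE libraries, and 0, 0 and 1 in the control libraries, a ratio of 60.3 with an exact 95% counting interval of 10.5 to 2411. *PUT4-1* (PP7435_Chr2-1178), for a proline permease, had 36, 43 and 53 counts, against 2 in each control library, a ratio of 17.7 with an interval of 7.91 to 49.0. The urea and polyamine transporter gene *DUR3-1* (PP7435_Chr2-1253) had 159, 160 and 196 counts in the OE libraries, and 29, 22 and 22 in the control libraries (log2 fold change 2.54, standard error 0.24, edgeR adjusted p = 0.00042). In none of these 3 genes did the OE libraries differ from each other by 1 log2 unit or more. *MEP2* ordered as *CRA1* and was just inside that limit, with 0.92 log2 units between OE_1 and OE_2. *PUT4-1* and *DUR3-1* were lowest in OE_1, where *CRA1* was highest. *XDE1* (PP7435_Chr2-0118), for a xanthine dehydrogenase, which makes urate from a purine base, had 521, 444 and 547 counts, against 115, 118 and 101 in the control libraries, a log2 fold change of 1.89 (standard error 0.17, edgeR adjusted p = 0.00031).

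One ammonium permease gene behaved differently. *MEP1* (PP7435_Chr2-0410) had 70, 11 and 39 counts in the OE libraries, and 4, 5 and 6 in the control libraries, and so followed *CRA1* (log2 fold change 2.58, standard error 0.57, edgeR adjusted p = 0.027). Its call was lost without OE_3 or without any 1 control library, whereas the other 7 calls of the list were kept with each of the 6 libraries left out in turn. These 7 calls rest in part on OE_2, so that setting OE_2 alone against the control libraries gives no independent support for them. Not all nitrogen genes rose. Of the 14 tested, 10 had a positive log2 fold change. In 2 of the 14 every OE library was below every control library, as in 17% of all genes tested. The putative urate oxidase gene *URO1*, whose product acts on urate, had 21, 10 and 7 counts in the OE libraries, and 24, 25 and 23 in the control libraries, a log2 fold change of −1.26 (standard error 0.34, edgeR adjusted p = 0.051) that did not pass the test. *URE2-2*, a member of the family of the inhibitor of the GATA factors, had 39, 26 and 28 counts, against 45, 46 and 40, a log2 fold change of −0.81 that was under the fold cutoff (edgeR adjusted p = 0.043). *CAR1-1* and *DAL3*, of arginine and allantoin breakdown, had log2 fold changes of −0.35 and −0.17 (edgeR adjusted p = 0.58 and 0.74). The untested members *SSY5* and *STP2*, of amino acid sensing, had at most 3 counts in any control library.

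**Figure D3:**
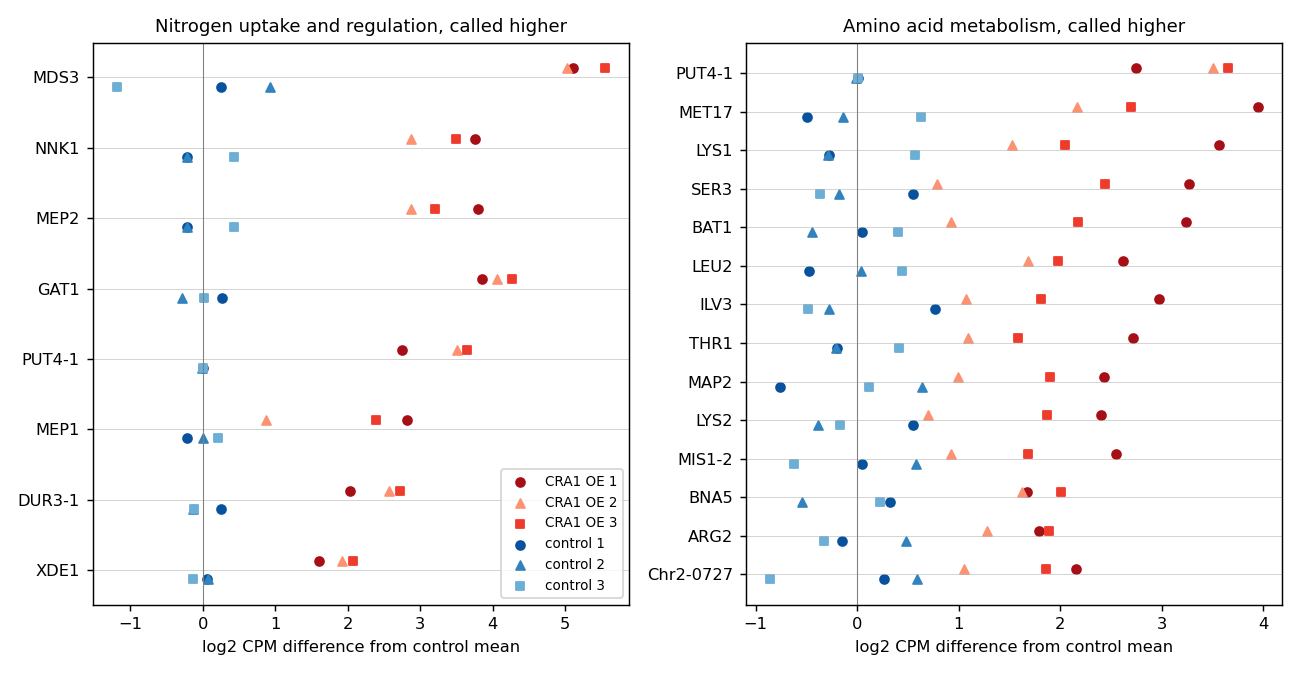
Log2 difference from the control mean in each of the 6 libraries, for the 8 nitrogen genes and the 14 amino acid metabolism genes called higher (OE libraries in red, control libraries in blue). For each nitrogen gene other than *MEP1* the 3 OE libraries lie within 1 log2 unit of each other, and most amino acid genes order as OE_1, OE_3, OE_2.

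Amino acid metabolism rose as well, but mostly in the order of *CRA1*. Of 43 list members 32 were tested, and 14 were called higher and 2 lower, with a median log2 fold change of 1.92. Of the 14, 10 followed *CRA1*, and the list's median log2 difference from the control mean was 2.42 in OE_1, 0.73 in OE_2 and 1.66 in OE_3. *MET17* (PP7435_Chr4-0665), which incorporates sulfide into homocysteine, had 223, 43 and 70 counts in the OE libraries, and 5, 7 and 13 in the control libraries (log2 fold change 3.31, standard error 0.56, edgeR adjusted p = 0.010). *LYS1*, of the last step of lysine synthesis, had 80, 12 and 20 counts, against 2, 2 and 5 (log2 fold change 3.16, standard error 0.72, edgeR adjusted p = 0.032). Genes of branched-chain, serine and threonine synthesis gave the same picture. *BAT1*, *SER3*, *ILV3*, *THR1* and *LYS2* had log2 fold changes of 2.59, 2.69, 2.32, 2.28 and 1.99, and each was highest in OE_1 and lowest, among the OE libraries, in OE_2.

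Several of these genes were level or moved the other way. *LEU2* (PP7435_Chr3-1206), of leucine synthesis, had 86, 30 and 41 counts in the OE libraries, and 5, 8 and 11 in the control libraries, with 0.93 log2 units between OE_1 and OE_2, just inside the limit for a level gene (log2 fold change 2.32, standard error 0.39, edgeR adjusted p = 0.0095). *BNA5* (PP7435_Chr3-0720), a kynureninase that turns tryptophan towards NAD, was flat at 59, 39 and 57 counts in the OE libraries, and had 14, 7 and 13 in the control libraries (log2 fold change 1.87, standard error 0.31, edgeR adjusted p = 0.0093). The 2 genes called lower act in the release of aspartate and glutamate from the vacuole and in the breakdown of asparagine. *AVT6* (PP7435_Chr2-0166), a vacuolar exporter of aspartate and glutamate, had 32, 21 and 18 counts in the OE libraries, and 44, 40 and 36 in the control libraries, while *ASP1* (PP7435_Chr3-0615), an asparaginase, had 80, 41 and 35 counts, against 81, 97 and 76. Their log2 fold changes were −1.08 and −1.05 (standard errors 0.24 and 0.23, edgeR adjusted p = 0.027 and 0.026). With each library left out in turn, 1 of the 14 genes called higher kept its call, *PUT4-1*, which is also in the nitrogen list, and neither of the 2 lower ones did.

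Glycolysis outside the study's own list of 11 genes followed the same order. Of 10 further genes of glycolysis and sugar phosphate metabolism, 8 were tested and 6 called higher, each following *CRA1*, and the list's median log2 difference was 2.87 in OE_1, 0.71 in OE_2 and 1.92 in OE_3. *TPI1* (PP7435_Chr3-0220), triosephosphate isomerase, had 209, 52 and 85 counts in the OE libraries, and 11, 9 and 9 in the control libraries (log2 fold change 3.16, standard error 0.42, edgeR adjusted p = 0.0025). It was the only gene of both glycolytic lists that kept its call with each library left out in turn. *PGK1*, phosphoglycerate kinase, had 667, 107 and 231 counts, against 47, 16 and 30. *PMI40* and *PSA1-1*, which lead from fructose 6-phosphate to GDP-mannose for glycoproteins and the cell wall, had log2 fold changes of 2.06 and 2.07 (edgeR adjusted p = 0.044 and 0.040), and *IPP1*, the pyrophosphatase, and *DOG1*, a sugar phosphatase, had 2.50 and 2.47 (edgeR adjusted p = 0.043 and 0.048).

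Of the study's list of 11 glycolytic and fermentative genes, which it chose on these libraries, all 11 were called higher and all 11 followed *CRA1*. Their median log2 difference from the control mean was 3.55 in OE_1, 1.24 in OE_2 and 2.57 in OE_3, so that it was above 1 also in the library with the lowest *CRA1*. All 11 were above every control library in OE_2, and 7 were called when OE_2 alone was set against the control. *CDC19*, pyruvate kinase, had 718, 135 and 241 counts in the OE libraries, and 41, 35 and 40 in the control libraries. *ENO1*, enolase, had 1246, 195 and 431 counts, against 86, 52 and 65. The widest gaps between OE_1 and OE_2 among called genes with a name in the table were those of *GPM1*, *PGI1* and *PFK2*, at 3.03, 2.92 and 2.75 log2 units. For *CRA1* itself that gap was 2.52. Leaving out each library in turn, none of the 11 calls was kept in all 6 fits.

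The reporter gene behaved as a mild member of this group. The egfp sequence had 218, 72 and 133 counts in the OE libraries, and 39, 26 and 45 in the control libraries, a log2 fold change of 1.57 (standard error 0.31, edgeR adjusted p = 0.016). Its gap between OE_1 and OE_2 was 1.03 log2 units, just above the limit for following *CRA1*, and its call was lost without OE_3, control_1 or control_2.

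Genes for cytosolic ribosomal proteins showed the order of *CRA1* but were nearly all uncalled. Of 18 tested, 1 was called higher. In all, 16 ordered as OE_1, OE_3, OE_2, against 32.4% of the tested genes of the annotation table and 28.3% of all genes tested. The median log2 difference from the control mean was 2.56 in OE_1, 0.25 in OE_2 and 1.24 in OE_3. In OE_2, 7 of the 18 were above every control library, no larger a share than the 239 of 527 in the annotation table. *RPP0* (PP7435_Chr1-0064), the acidic stalk protein, had 469, 48 and 162 counts in the OE libraries, and 38, 36 and 34 in the control libraries (log2 fold change 2.20, standard error 0.58, edgeR adjusted p = 0.049). For *RPL2B* the counts were 269, 18 and 64 in the OE libraries, and 18, 18 and 20 in the control libraries, so that OE_2 lay at the control level and OE_1 far above it (log2 fold change 2.17, edgeR adjusted p = 0.083). *RPS26B*, the most abundant sequence, had 11563, 9532 and 8285 counts, against 8827, 10698 and 9071 (log2 fold change −0.26, edgeR adjusted p = 0.42). In the control libraries the list's median difference of control_1 minus control_2 was 0.41 log2 units, in the same direction as OE_1 minus OE_2, and the part of such differences between cultures in the result was not tested.

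A wide spread between OE_1 and OE_2 was seen in further genes. Of 15 tested genes for chaperones and protein folding, 2 were called higher (13.3%), below the 24.5% of the annotation table. Their list's median log2 difference was 1.46 in OE_1, 0.07 in OE_2 and 0.77 in OE_3. *HSP82*, for a cytosolic chaperone, had 566, 49 and 187 counts in the OE libraries, and 62, 58 and 67 in the control libraries, with OE_2 below the control (log2 fold change 1.64, edgeR adjusted p = 0.10). Both tested histone genes, *HTA2* and *HHT2*, were uncalled, and *HTA2* had 207, 5 and 35 counts in the OE libraries, and 10, 10 and 5 in the control libraries, with 4.39 log2 units between OE_1 and OE_2. The mitochondrially encoded *COX2*, a subunit of cytochrome oxidase, had 489, 12 and 109 counts, against 21, 19 and 8, and *COB*, cytochrome b, had 376, 20 and 132 counts, against 32, 14 and 15 (edgeR adjusted p = 0.071 and 0.063). The libraries were made from poly(A)-enriched RNA. Genes encoded in the mitochondrion held 0.446%, 0.0358% and 0.201% of the counts of OE_1, OE_2 and OE_3, against 0.0301% to 0.0572% in the control, so that OE_2 was within the control range.

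Some called genes of protein synthesis and folding were level, as were 63.4% of all genes called higher. *TCP1* (PP7435_Chr2-1194), a subunit of the cytosolic chaperonin, had 271, 205 and 197 counts in the OE libraries, and 8, 7 and 5 in the control libraries, a log2 fold change of 4.74 (standard error 0.21, edgeR adjusted p = 6.6e-06). Another chaperonin subunit, *CCT2*, was too low to be tested, at 35, 7 and 18 counts, against 3, 8 and 1. *POL5* (PP7435_Chr2-0671), required for ribosomal RNA synthesis, had 180, 144 and 187 counts in the OE libraries, and 11, 6 and 14 in the control libraries, a log2 fold change of 3.73 (standard error 0.28, edgeR adjusted p = 0.00017). *EFM2* (PP7435_Chr1-0994), a methyltransferase of translation elongation factors, had 98, 87 and 110 counts, against 31, 20 and 15 (log2 fold change 1.87, standard error 0.29, edgeR adjusted p = 0.0058).

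Of 16 tested genes of ribosome assembly and rRNA processing, 3 were called higher, *POL5*, the importin gene *KAP123* and *MAK11*, with a median log2 fold change of 0.71 over the list and a positive value in 14 of the 16. *KAP123* had 104, 38 and 54 counts in the OE libraries, and 14, 7 and 17 in the control libraries (log2 fold change 1.99, standard error 0.37, edgeR adjusted p = 0.015). Of 5 tested genes of translation factors and tRNA charging, 3 were called higher, *EFM2*, the methionine aminopeptidase gene *MAP2* and *STM1*, the last 2 following *CRA1* (log2 fold changes 2.02 each, edgeR adjusted p = 0.048 and 0.049). All 5 had a positive log2 fold change, with a median of 2.02. *CPR1*, a cyclophilin of the chaperone list, had 141, 32 and 50 counts, against 21, 12 and 19, and followed *CRA1* too (log2 fold change 1.68, edgeR adjusted p = 0.049). The calls of *MAP2*, *STM1* and *CPR1* were each lost without OE_3 or any 1 control library.

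Of 8 tested genes for RNA polymerases and their initiation factors, 2 were called higher, or 25%, close to the 24.5% of the annotation table, and both act with polymerase III. *BRF1* (PP7435_Chr2-0904), a subunit of the initiation factor of polymerase III, had 433, 302 and 370 counts in the OE libraries, and 3, 5 and 2 in the control libraries. Its log2 difference from the control mean was 5.84, 5.87 and 6.01 in OE_1, OE_2 and OE_3, although *CRA1* differed 2.52 log2 units between OE_1 and OE_2. *RET1* (PP7435_Chr4-0768), for the second largest subunit of polymerase III, counts as level but ordered as *CRA1*, with 0.82 log2 units between OE_1 and OE_2. It had 69, 26 and 41 counts in the OE libraries, and 5, 3 and 4 in the control libraries (log2 fold change 3.11, standard error 0.38, edgeR adjusted p = 0.0018). Both kept their calls with each library left out in turn. Other factors of polymerase III were not called. *TFC7* had 23, 8 and 13 counts in the OE libraries, and 20, 12 and 20 in the control libraries (log2 fold change −0.59, edgeR adjusted p = 0.30), and *BDP1* and *TFC3* were too low to be tested. Also uncalled were the large subunits of polymerase II, *RPO21* and *RPB2*, and of polymerase I, *RPA190*, which ordered as OE_1, OE_3, OE_2 with log2 fold changes of 1.76, 2.12 and 1.71 (edgeR adjusted p = 0.077, 0.068 and 0.12). *TFB2*, of the general factor TFIIH, had a log2 fold change of −0.84, under the fold cutoff (edgeR adjusted p = 0.015).

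Among regulators of carbon metabolism, 1 gene rose and 1 fell. *SAK1* (PP7435_Chr2-0641), the kinase upstream of Snf1, had 86, 71 and 95 counts in the OE libraries, and 8, 7 and 8 in the control libraries, level across the OE libraries (log2 fold change 3.14, standard error 0.26, edgeR adjusted p = 0.00029). *HOT1* (PP7435_Chr1-0459), an activator of glycerol synthesis genes under osmotic stress, had 0, 1 and 3 counts in the OE libraries, and 18, 10 and 20 in the control libraries, a ratio of 0.0670 with an exact 95% counting interval of 0.0175 to 0.183. Its call was lost without any 1 control library. The remaining 5 tested genes of the list were not called. *SOK2*, a regulator in the protein kinase A pathway, had a log2 fold change of −0.81 (edgeR adjusted p = 0.047), under the fold cutoff, and *CAT8-2*, for a relative of the activator of gluconeogenesis, had one of 0.91 (edgeR adjusted p = 0.064). The median over the list was −0.06.

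**Figure D4:**
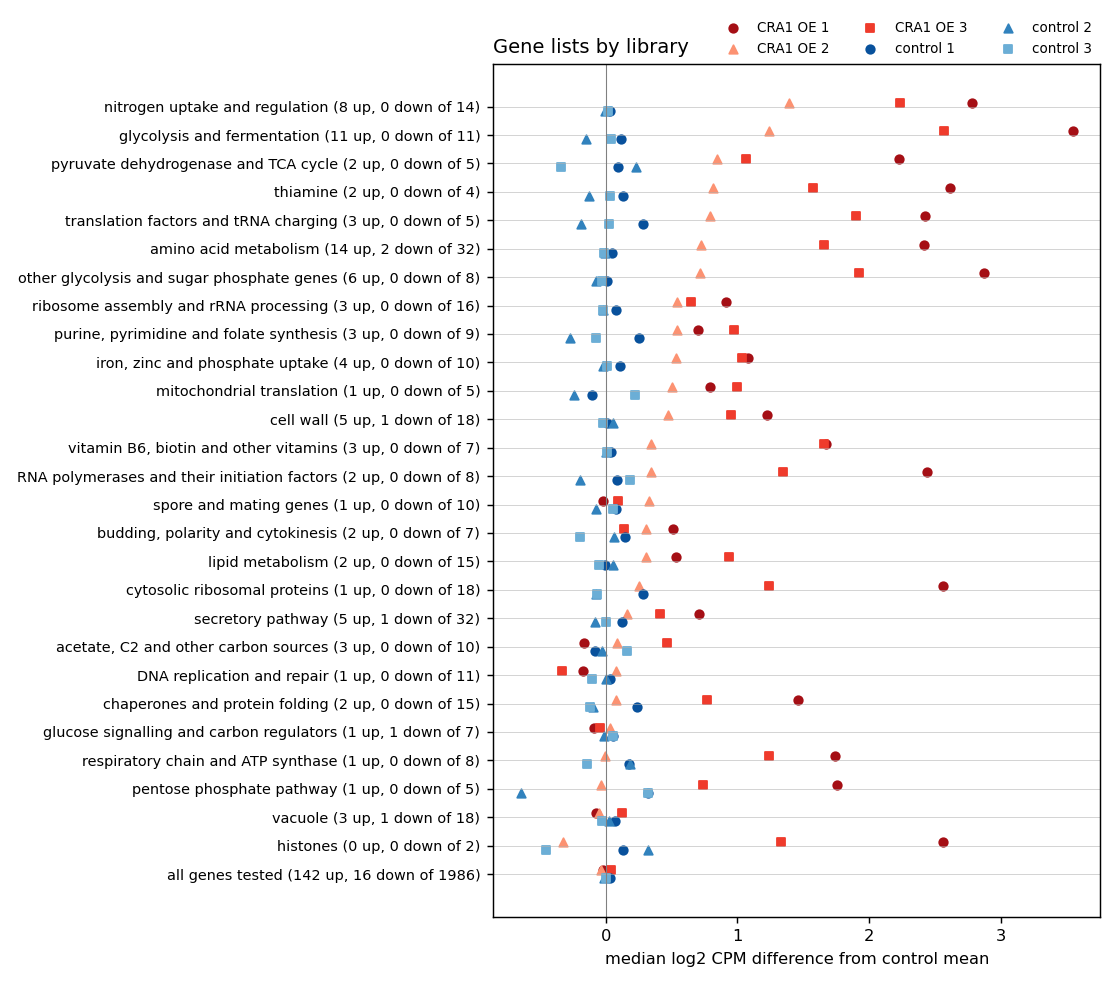
Median log2 difference from the control mean of each gene list in each library, with the numbers of members called higher (up) and lower (down) out of those tested. Lists are sorted by the median in OE_2, where nitrogen uptake is highest at 1.39, glycolysis and fermentation next at 1.24, and histones lowest at −0.32.

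Vitamin and nucleotide synthesis held genes of both kinds. Of the thiamine genes, *THI20* and *THI4* were called higher of 4 tested, both following *CRA1*, with 183, 37 and 86 counts of *THI20* in the OE libraries, and 17, 15 and 20 in the control libraries. Of 7 tested genes for vitamin B6, biotin and other vitamins, 3 were called higher. *BIO2* (PP7435_Chr1-0046), biotin synthase, was level at 31, 24 and 36 counts in the OE libraries, and had 8, 13 and 6 in the control libraries (log2 fold change 1.44, standard error 0.36, edgeR adjusted p = 0.043), in a medium to which biotin was added. *SNZ3*, of vitamin B6 synthesis, followed *CRA1* with 343, 39 and 135 counts, against 32, 23 and 33 (log2 fold change 2.11, edgeR adjusted p = 0.049). The call of *BNA5* was lost without control_2, and those of *BIO2* and *SNZ3* without OE_3 or any 1 control library.

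Of 9 tested genes of purine, pyrimidine and folate synthesis, 3 were called higher and all 3 followed *CRA1*. *URA1* (PP7435_Chr2-0016), dihydroorotate dehydrogenase, had 76, 18 and 41 counts in the OE libraries, and 10, 6 and 7 in the control libraries (log2 fold change 2.15, standard error 0.45, edgeR adjusted p = 0.021). *ADE17*, of the last steps of purine synthesis, had 55, 12 and 22 counts, against 5, 3 and 4 (log2 fold change 2.47, standard error 0.53, edgeR adjusted p = 0.024). None of the 3 calls, nor any member of this list, was called when OE_2 alone was set against the control.

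Mitochondrial genes were called in small numbers. Of 5 tested genes of pyruvate dehydrogenase and the TCA cycle, *SDH2*, the iron-sulfur subunit of succinate dehydrogenase, and *LAT1*, the acetyltransferase of pyruvate dehydrogenase, were called higher, and the list's median log2 difference was 2.23 in OE_1, 0.85 in OE_2 and 1.06 in OE_3, with 4 of the 5 genes above every control library in OE_2. *LAT1* (PP7435_Chr1-0349) had 84, 21 and 39 counts in the OE libraries, and 12, 7 and 13 in the control libraries (log2 fold change 1.77, standard error 0.43, edgeR adjusted p = 0.039). Of 8 tested respiratory chain and ATP synthase genes, *SDH2* alone was called, and the list's median log2 difference was 1.74 in OE_1, −0.01 in OE_2 and 1.24 in OE_3. Of 5 tested genes of mitochondrial translation, *NAM9* (PP7435_Chr2-0399), a ribosomal protein, was called, with 45, 14 and 23 counts, against 3, 2 and 6 (log2 fold change 2.50, standard error 0.49, edgeR adjusted p = 0.017). *YME1* (PP7435_Chr4-0064), the catalytic subunit of a protease of the inner membrane, belongs to none of these lists and had 41, 14 and 29 counts, against 3, 9 and 2 (log2 fold change 2.21, standard error 0.53, edgeR adjusted p = 0.037). The call of *NAM9* was lost without OE_3, control_1 or control_2, and that of *YME1* without OE_3, control_1 or control_3. Of 5 tested genes of the pentose phosphate pathway, only *TKL1*, transketolase, was called, and it followed *CRA1*. The *TKL1* call was lost without OE_3 or any 1 control library.

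Genes for acetate and other carbon sources included a rise that was smallest, not largest, in OE_1. *ADH6* (PP7435_Chr4-0395), for an NADPH-dependent alcohol dehydrogenase, had 55, 100 and 121 counts in the OE libraries, and 6, 14 and 15 in the control libraries. Its log2 difference from the control mean was 1.57 in OE_1, 2.93 in OE_2 and 3.06 in OE_3, and thus smallest where *CRA1* was highest (log2 fold change 2.73, standard error 0.48, edgeR adjusted p = 0.012). *ADH900*, related to formaldehyde dehydrogenase, had 224, 82 and 155 counts, against 47, 37 and 55 (log2 fold change 1.37, standard error 0.27, edgeR adjusted p = 0.016), and *ACH1*, a CoA transferase of acetate use, had 66, 38 and 64, against 5, 17 and 18 (log2 fold change 1.75, edgeR adjusted p = 0.034). The other 7 of the 10 genes tested were not called, and the list's median log2 fold change was 0.16. All 3 calls were lost without control_1 or without control_2.

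Of 10 tested genes in the list of iron, zinc and phosphate uptake, which also holds genes of release from the vacuole, 4 were called higher and 6 were not called. Log2 fold changes were positive in 7 of the 10 and reached down to −1.04, and 2 genes had every OE library below every control library. None of the 4 followed *CRA1* by the cutoff, although *FTH1-2* had its order, with 0.63 log2 units between OE_1 and OE_2. *PHM7* (PP7435_Chr1-0021), a membrane protein regulated by phosphate, had 114, 90 and 91 counts in the OE libraries, and 30, 36 and 31 in the control libraries (log2 fold change 1.30, standard error 0.17, edgeR adjusted p = 0.0027). *ZRT3* (PP7435_Chr3-0204), which releases zinc from the vacuole, had 70, 51 and 81 counts, against 20, 23 and 24 (log2 fold change 1.29, standard error 0.24, edgeR adjusted p = 0.015). The iron genes *FRE3*, a ferric reductase, and *FTH1-2*, a putative vacuolar iron transporter, had log2 fold changes of 2.13 and 3.07 (standard errors 0.41 and 0.68, edgeR adjusted p = 0.016 and 0.029). *FTH1-2* rests on 5, 0 and 1 counts in the control libraries, against 33, 14 and 20 in the OE strain. Each of the 4 calls was lost without at least 1 control library.

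Some genes of secretion, cell wall and polarity rose, at shares near or below the 24.5% of the annotation table. *SEC39* (PP7435_Chr2-0856), of a complex that tethers vesicles at the endoplasmic reticulum, had 251, 173 and 189 counts in the OE libraries, and 23, 23 and 29 in the control libraries, and its log2 difference from the control mean was 2.64, 2.65 and 2.63 in OE_1, OE_2 and OE_3 (log2 fold change 2.71, standard error 0.16, edgeR adjusted p = 3.1e-05). *WSC4* (PP7435_Chr3-0577), an endoplasmic reticulum membrane protein, had 62, 40 and 46 counts, against 2, 3 and 4 (log2 fold change 3.67, standard error 0.32, edgeR adjusted p = 0.00031). In all, 5 of 32 tested genes of the secretory list (15.6%) were called higher and 1 lower, *KRE5-2*, and 5 of 18 tested genes of the cell wall list (27.8%) higher and again *KRE5-2* lower. *HID1* (PP7435_Chr3-0801), of the cell wall list, had 439, 268 and 329 counts, against 101, 96 and 93 (log2 fold change 1.51, standard error 0.13, edgeR adjusted p = 0.00031).

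Of 7 tested genes of budding and polarity 2 were called higher (28.6%), a GTPase and a protein that acts on it. *CDC42* (PP7435_Chr2-1195), the GTPase that sets the bud site, had 49, 26 and 33 counts in the OE libraries, and 4, 3 and 9 in the control libraries (log2 fold change 2.40, standard error 0.40, edgeR adjusted p = 0.0095), and *BEM3* (PP7435_Chr1-1216), a GTPase-activating protein for Cdc42, had 219, 130 and 165 counts, against 34, 15 and 18 (log2 fold change 2.61, standard error 0.28, edgeR adjusted p = 0.00088). The call of *CDC42* was lost without control_1 or control_2, and its identifier directly follows that of *TCP1*. The other 5 tested genes of that list were not called. Of the vacuole list, 3 of 18 tested genes were higher and 1, *AVT6*, lower, with a median log2 fold change of 0.04. Of the lipid list, *ECM18* (PP7435_Chr3-2370), of unknown function, had 86, 60 and 79 counts, against 7, 8 and 9 (log2 fold change 2.90, standard error 0.24, edgeR adjusted p = 0.00029), and *ERG2*, of ergosterol synthesis, was the only other of 15 tested genes called (log2 fold change 1.06, edgeR adjusted p = 0.045).

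In DNA replication and repair 1 of 11 tested genes was called. *REV1* (PP7435_Chr2-0504), a translesion polymerase, had 1363, 1071 and 1146 counts in the OE libraries, and 370, 390 and 396 in the control libraries, level across the OE libraries (log2 fold change 1.33, standard error 0.14, edgeR adjusted p = 0.00073), and its call was lost without control_1 or control_2. Its identifier directly follows that of *CDC19*. Among spore and mating genes, *SSP2*, a spore wall gene, was the only 1 of 10 tested that was called, with 282, 222 and 335 counts, against 99, 83 and 117 (log2 fold change 1.19, edgeR adjusted p = 0.012).

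Neighbours were called together in a small number of cases. The genes called higher contain 11 pairs with consecutive identifiers, so that 22 of the 141 called genes with a chromosomal identifier, or 15.6%, stand next to another called gene, against 5.19% of the tested genes that have a neighbour in the tables. Among the pairs were *TCP1* and *CDC42*, *PHM7* and *IPP1*, *NUP159* and *PSA1-1*, and *FRE3* and *RET1*. Without a stated strand setting, reads of overlapping or antisense neighbours cannot be told apart. By chromosome, 6.85% to 7.76% of the tested genes of chromosomes 1 to 4 were called higher.

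Of the genes called higher, 65 were in none of the lists, and 39 of these carry no gene name in the table. The strongest unnamed rise was that of PP7435_Chr1-0718, described as a protein with a RING finger domain, with 98, 94 and 117 counts in the OE libraries, and 2, 6 and 1 in the control libraries (log2 fold change 4.77, standard error 0.44, edgeR adjusted p = 0.00038). Further genes outside the lists were chosen after their values were seen. *NUP159*, of the nuclear pore, had 46, 43 and 32 counts, against 1, 2 and 2, a ratio of 19.4 with an exact 95% counting interval of 8.11 to 61.0. *ARO10-2*, a decarboxylase of the Ehrlich pathway, which turns amino acids into fusel alcohols, had 56, 40 and 49 counts, against 3, 2 and 3, a ratio of 14.6 with an interval of 7.20 to 34.4. Each of these 3 genes was level across the OE libraries.

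The 16 genes called lower were mostly of unknown function, and 11 of them were level across the OE libraries. PP7435_Chr1-2269, a hypothetical protein that is not conserved, had 46, 40 and 39 counts in the OE libraries, and 228, 247 and 226 in the control libraries (log2 fold change −2.78, standard error 0.15, edgeR adjusted p = 2.0e-05). *SEO1-2* (PP7435_Chr1-0293), a putative permease of the allantoate transporter family, had 24, 6 and 15 counts, against 60, 51 and 63 (log2 fold change −2.30, standard error 0.33, edgeR adjusted p = 0.0039). It was lowest in OE_2, the library with the least *CRA1*, and highest among the OE libraries in OE_1. PP7435_Chr4-0092, with a domain of a Mediator subunit, had 82, 65 and 73 counts, against 175, 193 and 166 (log2 fold change −1.58, standard error 0.14, edgeR adjusted p = 0.00035). PP7435_Chr4-0981 had 10, 10 and 5 counts, against 43, 39 and 29 (log2 fold change −2.44, standard error 0.34, edgeR adjusted p = 0.0036).

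These 4 genes were the only ones of the 16 that kept their calls with each library left out in turn. Of the others, *DAS2_Sc*, weakly similar to uridine kinases, had 6, 2 and 2 counts in the OE libraries, and 12, 15 and 12 in the control libraries (log2 fold change −2.25, edgeR adjusted p = 0.016). *KRE5-2* (PP7435_Chr1-0117), required for a glucan of the cell wall, had 17, 14 and 28 counts, against 34, 49 and 44 (log2 fold change −1.39, standard error 0.33, edgeR adjusted p = 0.036). PP7435_Chr1-1082 had 3, 5 and 7 counts, against 12, 15 and 13 (log2 fold change −1.68, edgeR adjusted p = 0.049). No list had more than 2 members called lower. The number of falls was the part of the comparison that moved most with the tool, at 16 with edgeR and 40 with DESeq2.

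When OE_2 was set alone against the 3 control libraries, a setting chosen after the values were seen, 104 genes were called higher and 25 lower, and 87 of the 142 rises of the full comparison were among the 104. The spread of the lone OE library is assumed in this fit to be that of the controls. The level and following kinds are defined with OE_2, where their median log2 differences were 1.77 and 0.98. That level rises are called more readily in this setting was thus built in. OE_2 also helped to make the 142 calls, so calls kept here, by kind or by list, are not independent support. *CRA1* had a log2 fold change of 3.07 in this setting. The nitrogen list kept 7 of its 8 calls and the glycolytic and fermentative list 7 of 11, whereas the ribosomal, purine and pyrimidine, and TCA cycle lists kept none of their 1, 3 and 2.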

How the data were processed

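RNA from 3 shake-flask cultures per strain was poly(A)-enriched and sequenced by Illumina. Per the submitters' processing notes, BAM files were converted with SAMtools 1.5 and Picard 2.17.3-3, trimmed with Trim Galore 0.4.2, checked with FastQC 0.11.2 and quantified with kallisto 0.44.0. The authors used a transcript index of the CBS7435 annotation. The authors deposited estimated counts per sequence without normalization, and TPM, computed by kallisto from the same counts and sequence lengths. The TPM values and the authors' tables of normalized counts were not used for results. For the tests the estimated counts were rounded. The strand setting is not given in the sources used here.

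Genes passing filterByExpr were tested over the 6 libraries with TMM factors and edgeR 4.0.16 (R 4.3.3) by the quasi-likelihood test with Benjamini-Hochberg adjustment. Calls needed an adjusted p under 0.05 and an absolute log2 fold change of at least 1. Standard errors given are the absolute log2 fold change divided by the square root of the quasi-likelihood F statistic. They are thus derived from the test and not estimated separately. Differences of single libraries are on log2 CPM with a prior count of 2. Tested on simulated data for this comparison (1986 genes, 200 changed), edgeR recovered 86.5% of changed genes and made 7 false calls. The changed genes there had a median absolute log2 fold change of 1.96, above the cutoff of 1. The 86.5% thus does not give the recovery of smaller changes, nor of changes that differ between the OE libraries. Total counts were 106343 to 213700. Count ratios are relative to the TMM-scaled totals of the tested genes, with exact binomial intervals at 95%. Alternatives were DESeq2 1.42.0 without and with length offsets, RLE factors, library totals, TMM without ribosomal and glycolytic genes, no filter, a minimum mean of 50 counts, all 9 libraries in 1 fit, the replicate number as a block, no fold cutoff, and each library left out. OE_2 alone against the controls was added after the values were seen.

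Gene names come from the paper's table of changed genes, which names 522 of its 714 entries, and no identifier was found in the reference table of strain GS115. Members and lists were chosen with earlier results of these data known. Named were *CRA1*, egfp, up to 2 called members per list and direction with the lowest adjusted p, the 6 largest rises and 8 largest falls among called genes whose libraries do not overlap, the 3 level genes and the 3 genes following *CRA1* with the widest range between OE libraries, and further list members to account for a list.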

Additional observations from a re-analysis of the deposited data

Results flagged for a closer look

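The sequence of the kanamycin resistance marker, which enters no comparison of the report, had 19, 10 and 16 counts in OE_1, OE_2 and OE_3, 45 in all, and 0 counts in each of the 3 control libraries. A count of 0 over the 3 control libraries allows a share of up to 0.000928%, against which the share in the OE libraries was at least 10.4-fold higher (3 counts over the control group, relative to all counts). In the libraries of the *CRA1* deletion strain the same sequence had 1751, 1526 and 1679 counts. Whether the OE strain carries this marker is not given in the sources used here.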

How the results depend on the processing

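The numbers of called genes moved most. Against 142 higher and 16 lower, 1 fit over 9 libraries called 310 and 53, no filter 342 and 72, and a mean of at least 50 counts 48 and 4. The number lower was 40 with DESeq2, 39 with DESeq2 and length offsets, 26 with library totals, 49 with no fold cutoff and 25 with OE_2 alone, while the number higher stayed within 1.5 times. Leaving out 1 library gave 40 to 515 higher and 4 to 59 lower. The cause of these shifts was not tested, apart from the fewer genes tested at a higher count minimum. *CRA1* was called in all settings, at log2 fold changes of 3.07 to 5.10. The genes following *CRA1* numbered 46 with RLE factors or a prior count of 0.5, and 60 when 0.5 log2 units between OE_1 and OE_2 sufficed.

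Taking the replicate number as a block gave 281 higher and 26 lower and kept all 158 calls. The main fit has no block, since the numbers were taken only as names of shake flasks. Deviations from the strain means correlated between same-numbered libraries at 0.34, 0.28 and 0.09 (1118 genes averaging 30 counts or more). Every OE library correlated best with the control library of its own number, and whether the numbers pair the cultures is not settled here.

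Of the 62 genes named by the rule, 23 kept their call with each library left out in turn and 57 were called by DESeq2 too. No named gene changed direction under any setting. Depth limits what can be said of the 3358 untested sequences, and groups of 3 were too small to test single libraries as outliers.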
